A study of Mus musculus with 18 samples.

Results

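The response of Dectin-1 knockout monocytes to intravenous immunoglobulin (IVIg) was read from 6 RNA-seq libraries, chosen by their genotype and treatment labels from the 18 of the series. The monocytes were sorted from spleens of Dectin-1 knockout mice on day 3, with 3 libraries from mice given IVIg and 3 from mice given phosphate-buffered saline (PBS). All 6 libraries carry the Dectin-1 knockout, and all were made from messenger RNA with a strand-marking kit. The design text names 3 independent mice a group. The corresponding 6 libraries of C57BL/6 wild-type (WT) mice, 3 with IVIg and 3 with PBS on day 3, are used here only to set the response beside that of WT. Dose, age and sex of the mice, how the knockout was made and the gate of the sort are not given in the sources used here. As a check of sex, Xist had 0 counts in all 6 Dectin-1 knockout libraries. The Y-linked Ddx3y had 1103 counts or more in each of them, as in male cells. The series asks whether Dectin-1 and the inhibitory Fc gamma receptor FcgRIIb shape what IVIg does to monocytes. Its remaining 6 libraries are from FcgRIIb knockout mice, 3 with IVIg and 3 with PBS on day 3. They enter here only through the shared filter and statistical model and the level of Clec7a.

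IVIg is immunoglobulin G pooled from many human donors, and it is given both to replace antibody and to damp inflammation. Dectin-1, encoded by Clec7a, is a C-type lectin of myeloid cells that binds beta-glucans and signals through the kinase Syk and the adapter CARD9. Spleen monocytes comprise classical cells, marked by Ly6c2 and Ccr2, and non-classical cells, which depend on the transcription factor Nr4a1 and carry the Fc gamma receptor Fcgr4, the scavenger receptor Cd36 and Cd300e.

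Clec7a (ENSMUSG00000079293) was at 2.24, 2.36 and 4.05 CPM (counts scaled by library size) in the PBS libraries and at 0.247, 0.86 and 1.55 CPM in the IVIg libraries. In the other 12 libraries of the series, from WT and FcgRIIb knockout mice, it was at 360 to 956 CPM. All 6 libraries were therefore far below the libraries that are not Dectin-1 knockout. Monocyte genes were present in each of them: Lyz2, the lysozyme of myeloid cells, lay between 15400 and 25800 CPM and Csf1r, the receptor for the growth factor of monocytes, between 2280 and 2790 CPM. Total counts were 16996494 to 45510768, so that 3 counts correspond to 0.0629 to 0.186 CPM. IVIg replicate 1 had the lowest total and stood apart: its Spearman correlation with the other 5 libraries was 0.955 to 0.963, and it was 0.969 or more between the others. Long genes were lower in it (rho of deviation on gene length -0.497 over 5288 abundant genes) and higher in IVIg replicates 2 and 3 (0.451 and 0.477). In PBS replicates 1, 2 and 3 this rho was 0.0392, 0.262 and -0.329. Over the same genes, the Spearman correlation of the IVIg against PBS fold change with gene length was 0.27 in the knockout and -0.419 in WT. PBS replicates 2 and 3 share a code in their titles whose meaning is not given. Their correlation was 0.974, and that of PBS replicate 1 with them was 0.979 and 0.976. All pairs of the 6 libraries lay between 0.955 and 0.979, so a correlation cannot show whether they share an origin, which was not tested.

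No gene passed the test between IVIg and PBS in the Dectin-1 knockout, and neutrophil transcripts with higher values in IVIg stood among the genes with the smallest p values. The edgeR quasi-likelihood test called 0 of 17040 genes (0%) at an adjusted p under 0.05, and the smallest adjusted p was 0.234, that of Retnlg. This value depends on which libraries share the model. FcgRIIb knockout PBS replicate 2 holds only 719494 counts, and without it the smallest edgeR adjusted p was 0.915. In an edgeR fit of the knockout's own groups only it was 0.713. At an unadjusted p under 0.05 there were 313 genes with higher (1.84%) and 243 with lower values (1.43%) in IVIg, 556 together (3.26%). DESeq2 called 2 genes and limma voom 0. The median log2 fold change over all genes was 0.0209. All 3 IVIg libraries were above all 3 PBS libraries for 745 genes (4.37%) and below them for 754 (4.42%). Of the 20 genes with the smallest unadjusted p, 17 were higher in IVIg and 10 were on the list of neutrophil genes described next. The plot of fold changes against abundance shows those genes apart from others of like abundance.

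**Figure D1:**
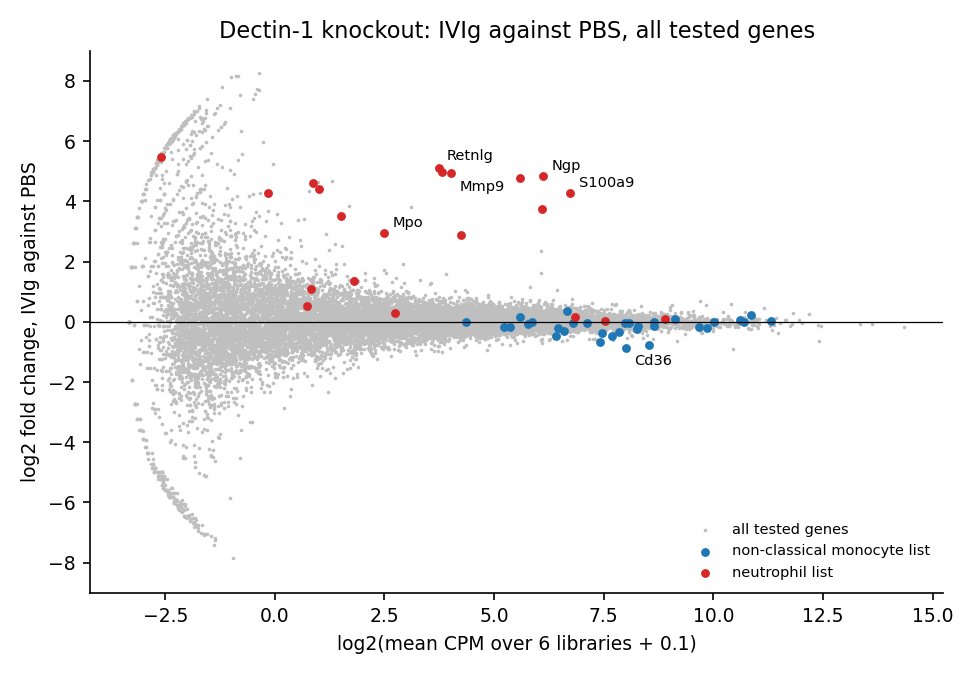
Log2 fold change of IVIg against PBS in the Dectin-1 knockout for 17040 genes, against the log2 of the mean CPM over 6 libraries with 0.1 added; each point is a gene. Neutrophil genes (red) reach a log2 fold change of about 5 at abundances where most genes lie near 0, and non-classical monocyte genes (blue) lie near or below 0.

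Neutrophil transcripts had their highest values in 2 of the 3 IVIg libraries. Of the 25 genes on the neutrophil list, 21 were tested, 3 did not pass the filter on low counts and 1 was not matched by symbol. All 21 tested members had a positive log2 fold change, against 53% of all genes, and their median was 3.73, or 3.53 with a gene at 0 counts in 1 group set at its bound. An unadjusted p under 0.05 with higher values was found for 13 of them (1.84% of all genes), and none was called after adjustment over all genes. A log2 fold change of 2 or more was found for 14 of the 21, against 3.35% of all genes. As a description of these 14, which their own IVIg values selected, IVIg replicate 2 was the highest of the 6 libraries for all 14, and IVIg replicate 3 was above every PBS library for 6. In bulk RNA, a change in how many cells of a type were sorted and a change in the RNA each cell holds cannot be told apart.

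Several of these genes are switched on during granulocyte maturation under transcription factors of the C/EBP family. The start regions of 4 of them are shown, picked from the listed genes whose windows hold a match to a core of the C/EBP site, so that a reader can see where it lies. They run from 250 bases before to 50 bases after the start, on the strand of the gene, in RefSeq's GRCm38.p6: Retnlg at chr16:48872358-48872657 (plus strand), Ngp at chr9:110419558-110419857 (plus), Ltf at chr9:111019042-111019341 (plus) and Lcn2 at chr2:32387690-32387989 (minus). Capitals mark matches on either strand to TTGCNNAA, that core.
Retnlg: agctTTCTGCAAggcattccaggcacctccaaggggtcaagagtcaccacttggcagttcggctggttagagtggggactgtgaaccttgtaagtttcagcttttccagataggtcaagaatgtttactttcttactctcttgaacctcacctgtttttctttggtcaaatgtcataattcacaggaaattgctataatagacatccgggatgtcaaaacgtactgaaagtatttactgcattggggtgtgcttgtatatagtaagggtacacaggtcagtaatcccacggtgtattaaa
Ngp: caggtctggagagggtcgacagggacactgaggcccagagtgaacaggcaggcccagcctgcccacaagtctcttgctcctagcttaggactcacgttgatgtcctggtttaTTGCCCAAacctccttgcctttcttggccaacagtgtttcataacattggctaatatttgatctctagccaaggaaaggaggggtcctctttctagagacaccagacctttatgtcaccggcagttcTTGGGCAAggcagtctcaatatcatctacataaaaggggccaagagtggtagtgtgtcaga
Ltf: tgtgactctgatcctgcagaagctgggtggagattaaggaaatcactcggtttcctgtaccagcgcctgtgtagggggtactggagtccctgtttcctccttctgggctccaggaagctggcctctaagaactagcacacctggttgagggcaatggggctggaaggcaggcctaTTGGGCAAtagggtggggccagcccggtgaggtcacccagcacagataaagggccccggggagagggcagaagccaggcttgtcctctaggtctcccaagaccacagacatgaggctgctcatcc
Lcn2: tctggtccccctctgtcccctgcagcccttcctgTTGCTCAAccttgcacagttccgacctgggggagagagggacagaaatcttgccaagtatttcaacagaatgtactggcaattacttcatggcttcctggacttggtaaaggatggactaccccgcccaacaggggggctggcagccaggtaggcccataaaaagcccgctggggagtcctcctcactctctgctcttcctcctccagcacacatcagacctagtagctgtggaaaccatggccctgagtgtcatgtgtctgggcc
The match begins 246 bases before the start of Retnlg, 138 and 11 bases before that of Ngp, 75 before that of Ltf and 216 before that of Lcn2. Of 19 tested list members with a window, 7 hold a match (36.8%), against 12.2% of all 27025 symbols with a window and 10.8% of all 32851 windows. All symbols include genes that were not tested here, and the share among tested genes alone was not computed. A match in letters does not show that a factor binds there.

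Retnlg, a resistin-like protein of granulocytes (ENSMUSG00000022651, chromosome 16, 48692984 to 48694859, GRCm39), was at 0.333, 0.611 and 1.41 CPM in PBS and at 18.7, 53.7 and 4.51 CPM in IVIg. All 3 IVIg libraries were above all PBS libraries, and the log2 fold change was 5.11 (SE 0.905, n = 3 per group, edgeR adjusted p = 0.234). Mmp9, a gelatinase stored in neutrophil granules, was at 1.42, 1.43 and 0.0372 CPM in PBS and at 15, 74.6 and 4.8 CPM in IVIg. Here too the groups did not overlap, and IVIg replicate 3 was the lowest of its group. S100a8, which with S100a9 forms calprotectin, was at 6.12, 9.08 and 13.4 CPM in PBS and at 113, 250 and 14.6 CPM in IVIg. S100a9 was at 3.79, 13 and 15.2 CPM in PBS and at 171, 411 and 26.5 CPM in IVIg. IVIg replicate 3 lay just above the highest PBS library for S100a8 and further above it for S100a9 (26.5 against 15.2 CPM). In both genes it was far below the other IVIg libraries.

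For Ngp, Ltf, Camp and Ly6g the groups overlapped. Ngp, a neutrophil granule protein, was at 1.39, 7.03 and 5.65 CPM in PBS and at 110, 288 and 4.8 CPM in IVIg. Ltf, lactoferrin, was at 0.454, 5.1 and 4.72 CPM in PBS and at 59.4, 216 and 2.52 CPM in IVIg. IVIg replicate 3 lay within the PBS range for both. Camp, a cathelicidin, was at 0, 2.28 and 0 CPM in PBS and at 25.2, 56.4 and 0.21 CPM in IVIg. Ly6g, the surface marker by which mouse neutrophils are sorted, was at 0.0303, 0.292 and 0 CPM in PBS and at 4.83, 5.3 and 0 CPM in IVIg. The fold changes of these 4 genes on the log2 scale were 4.83 (SE 1.18), 4.77 (SE 1.15), 4.99 (SE 1.2) and 4.61 (SE 1.23), with edgeR adjusted p of 0.82 or more. The list members with small fold changes included Csf3r (log2 0.03), the receptor for the granulocyte growth factor, Mmp8 (0.15), Cd177 (0.09) and Prtn3 (0.29). The last 2 also stand on the list of classical monocyte genes.

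**Figure D2:**
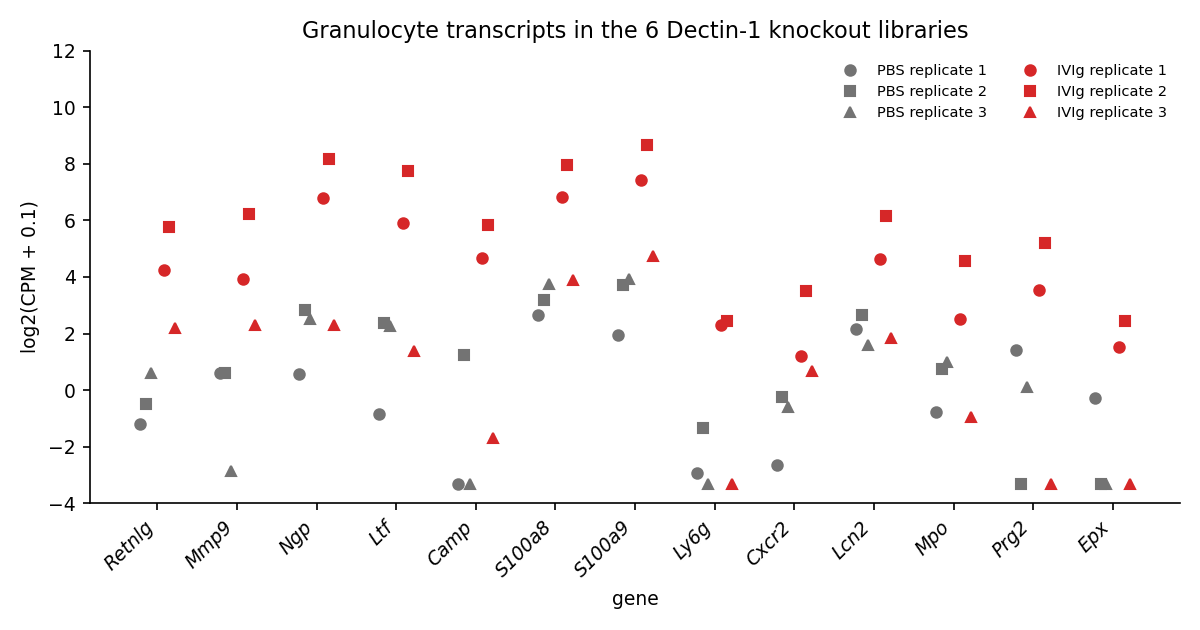
Levels of 11 neutrophil and 2 eosinophil genes (Prg2 and Epx) in the 6 Dectin-1 knockout libraries, as log2 of CPM with 0.1 added; each symbol is 1 library. IVIg replicates 1 and 2 (red circles and squares) lie above the PBS libraries (grey), and IVIg replicate 3 (red triangles) lies near them.

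The list median was 3.81 without IVIg replicate 1, 2.30 without IVIg replicate 2 and 4.27 without IVIg replicate 3. With IVIg replicate 3 as the only treated library, it was -0.14 and 8 of 21 members were higher than in PBS, in an alternative added after the data were seen. With IVIg replicate 3 left out, the edgeR test called 13 of 17929 genes, all higher, with adjusted p of 0.00689 to 0.0481. The other 5 fits that leave out 1 of the 6 libraries called 0. The 13 called genes were Retnlg, Chil1, Wfdc21, Camp, Ly6g, Itgb2l, Mpo, Ear1, Prg2, Mmp9, Ltf, Hdc and Ngp, and 8 of them are on the neutrophil list. For each of them the library left out was the lowest of the IVIg group. In WT the list median was -0.10, and 9 of the 21 members were higher with IVIg (51.1% of all genes). The difference between the genotypes was positive for 20 of 21 members, with a median of 3.31 and no adjusted p under 0.998.

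Transcripts of eosinophils and mast cells were also highest in IVIg replicate 2. Of 15 listed genes 9 were tested, 8 had higher values in IVIg, and the median was 2.38 (0.81 without IVIg replicate 2). With IVIg replicate 3 as the only treated library, where some members were at 0 counts, it was -4.38 and 4 of 9 were higher. With a filter of at least 1 CPM in 3 libraries, 5 members were left and the median was 0.46. Prg2, the major basic protein of eosinophil granules, was at 2.55, 0 and 0.967 CPM in PBS and at 11.4, 36.4 and 0 CPM in IVIg. Epx, eosinophil peroxidase, was at 0.727, 0 and 0 CPM in PBS and at 2.78, 5.35 and 0 CPM in IVIg. Both were at 0 counts in IVIg replicate 3, and Siglecf, a surface lectin of eosinophils, was not higher with IVIg (0.0619, 0.814 and 0 CPM, against 1.12, 0.478 and 0.856 CPM in PBS). Hdc, which makes histamine, was at 0.818, 0.584 and 0.818 CPM in PBS and at 3.09, 7.16 and 0.985 CPM in IVIg (log2 fold change 2.38, SE 0.66). In WT all 3 IVIg libraries (1.5, 1.47 and 0.51 CPM) were below all PBS libraries (2.27, 3.45 and 1.64 CPM) for Hdc.

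B cell genes were likewise highest in IVIg replicate 2. Of 20 tested members 17 were higher with IVIg and the median was 0.99, but it was 0.32 without IVIg replicate 2 and -0.20 with IVIg replicate 3 alone. Ms4a1, the CD20 gene, was at 3.67, 9.58 and 1.9 CPM in PBS and at 10.5, 17 and 4.32 CPM in IVIg, and its groups overlapped. T cell genes were higher for 21 of 24 members, with a median of 0.72 and Cd3e at 1.02 CPM or less in all 6 libraries. Dendritic cell genes were higher for 17 of 19, with a median of 0.40, NK cell genes for 12 of 18 (median 0.66) and erythroid genes for 7 of 10 (median 0.52). With 1 library left out, the dendritic cell median was as low as 0.14 (without PBS replicate 3) and the erythroid one 0.31 (without IVIg replicate 1). The NK cell median ran from 0.31 (without PBS replicate 1) to 1.23 (without PBS replicate 2), and was 0.48 with groups at 0 counts set at their bound. Plasma cell genes had a median of 0, platelet genes 0.31 and stromal genes 0.37. The summed level of the neutrophil list was 742 to 876 CPM in PBS and 747 to 2360 CPM in IVIg, that of the eosinophil and mast cell list 14.7 to 21.3 and 28.6 to 77.1 CPM, and that of the B cell list 343 to 445 and 354 to 529 CPM. The part of these cell types in the other differences given here was not tested.

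Most genes of non-classical monocytes had slightly lower values with IVIg in the knockout. Of 32 genes 7 had higher values and 25 lower, the median was -0.10, and for 6 members all IVIg libraries were below all PBS libraries (4.42% of all genes). With 1 library left out, the median ran from -0.19 (without IVIg replicate 1) to -0.07 (without PBS replicate 3) and the number of higher members from 5 to 12. No member reached an unadjusted p under 0.05. In WT, 31 of the same 32 genes were higher with IVIg, with a median of 0.60, and 10 had all IVIg libraries above all PBS libraries (3.44% of all genes). Over all genes, the same model called 1 gene in WT (0.00587%), the gene model Gm9574, with lower values in IVIg. The difference between the genotypes was negative for 31 of 32 (50% of all genes) with a median of -0.75, and 12 reached an unadjusted p under 0.05 with a lower value in the knockout (1.95% of all genes). The edgeR interaction test called 0 of 17040 genes, with 333 lower and 306 higher in the knockout at an unadjusted p under 0.05 (1.95% and 1.8%), and DESeq2 called 1. The smallest adjusted p of a list member was 0.998.

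Cd300e, an activating receptor of non-classical monocytes, was at 189, 292 and 289 CPM in knockout PBS and at 172, 259 and 176 CPM in knockout IVIg. In WT it was at 75.8, 152 and 137 CPM with PBS and at 237, 339 and 228 CPM with IVIg. The knockout groups overlapped, the WT groups did not, and all 3 knockout PBS libraries were above the WT PBS libraries. The knockout minus WT difference in the IVIg effect was -1.48 on the log2 scale (SE 0.381, unadjusted p = 0.000993, edgeR adjusted p = 0.998). Eno3, the muscle form of enolase, was at 206, 239 and 282 CPM in knockout PBS and at 209, 152 and 159 CPM in knockout IVIg. In WT it was at 89.3, 111 and 93.8 CPM with PBS and at 178, 298 and 216 CPM with IVIg, so that all knockout libraries were above all WT PBS libraries.

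Cd36, the scavenger receptor for oxidised lipids, was at 422, 261 and 313 CPM in knockout PBS and at 173, 226 and 142 CPM in knockout IVIg. Its groups did not overlap, and the log2 fold change was -0.88 (SE 0.425, unadjusted p = 0.0526). Ear2, a ribonuclease of the eosinophil-associated family, was at 490, 411 and 484 CPM in knockout PBS and at 369, 244 and 209 CPM in knockout IVIg (log2 fold change -0.75, SE 0.373). Ear2 shares near-identical copies, so its counts are uncertain. In WT Cd36 was at 112, 190 and 85.3 CPM with PBS and at 160, 555 and 208 CPM with IVIg, a fold change of the opposite sign (log2 1.25, SE 0.427) with overlapping groups.

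**Figure D3:**
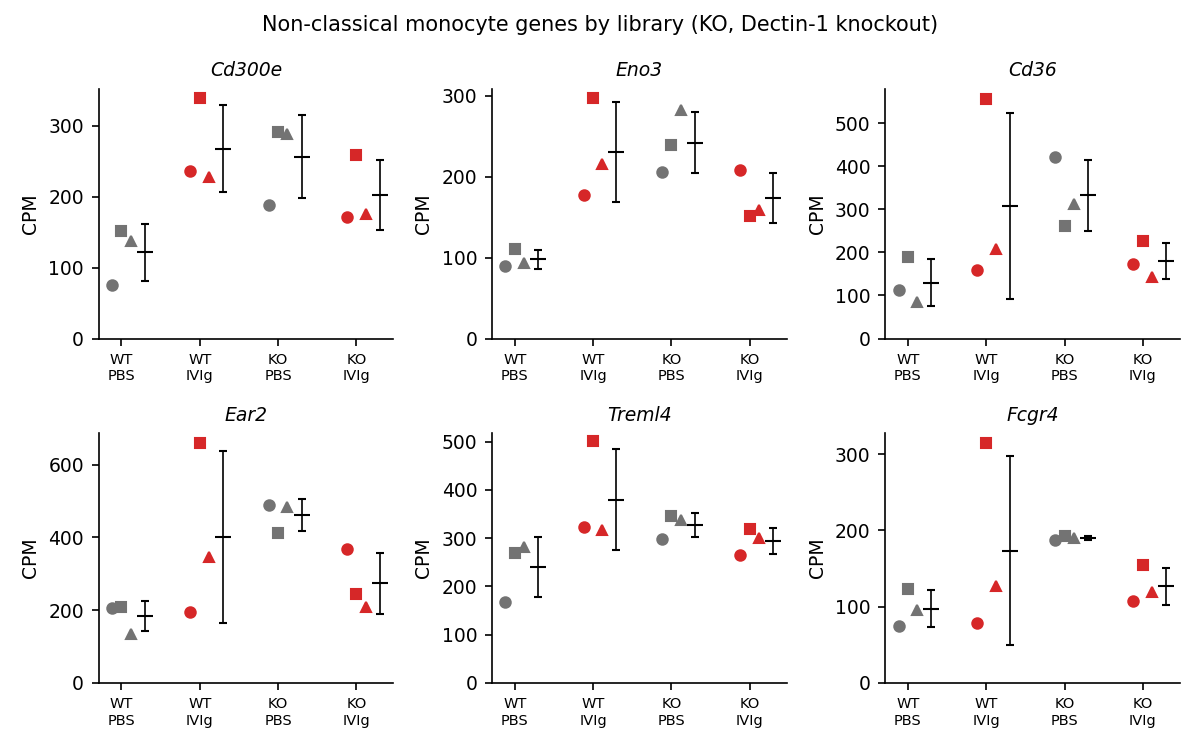
CPM of 6 non-classical monocyte genes by library in 4 groups (WT and Dectin-1 knockout, PBS in grey and IVIg in red); each symbol is 1 library, and the bar beside it is the mean with SD (n = 3). In each panel the knockout PBS libraries lie above the WT PBS libraries, and the knockout IVIg mean lies below the knockout PBS mean. Cd300e, Eno3 and Treml4 were picked after their values were seen. Summed over the whole non-classical list, the levels overlapped, at 14500 to 16400 CPM in knockout PBS and 11800 to 14800 CPM in WT PBS.

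Classical monocyte genes were divided, with 16 of 30 higher and a median of 0.03 (-0.13 without IVIg replicate 1). Ly6c2 was at 506, 538 and 625 CPM in PBS and at 593, 403 and 326 CPM in IVIg, and Ccr2, the receptor that brings monocytes out of the bone marrow, at 2430, 1750 and 1840 CPM and at 2230, 1170 and 1660 CPM. Both overlapped between the groups. Chil3, a chitinase-like protein of classical cells, was at 2400, 1500 and 1570 CPM in PBS and at 998, 1080 and 825 CPM in IVIg. Every IVIg library was below every PBS library for Chil3, with a log2 fold change of -0.91 (SE 0.454, unadjusted p = 0.0583). Its WT fold change had the same sign (log2 -1.25, SE 0.456), and the difference between the genotypes was 0.34 (SE 0.636).

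Among immediate early genes, which are transcribed within minutes of a stimulus, 19 of 28 were higher with IVIg and the median was 0.09 (0.06 to 0.17 with 1 library left out). Maff, Egr3 and Egr1, all transcription factors, had the smallest p values of the list. Egr1 was at 0.424, 0.292 and 0.521 CPM in knockout PBS and at 2.97, 1.79 and 2.5 CPM in knockout IVIg (log2 fold change 2.52, SE 0.818, unadjusted p = 0.00598). In WT it was at 2.21, 1.74 and 6.02 CPM with PBS and at 1.03, 0.143 and 0.333 CPM with IVIg. The groups of each genotype did not overlap, in opposite directions, and the 3 knockout IVIg libraries lay near the WT PBS level. Egr3 was at 0, 0.159 and 0.186 CPM in knockout PBS and at 3.4, 1.14 and 0.734 CPM in knockout IVIg, and Maff at 0.576, 0.77 and 0.26 CPM and at 4.52, 1.19 and 1.91 CPM. IVIg replicate 1 was the highest library for all 3 genes. The levels are a few CPM at most, and immediate early genes also respond to the handling of cells, which was not tested.

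Spib, an Ets-family transcription factor of B cells and plasmacytoid dendritic cells, had close values within the IVIg group: 10.6, 14 and 8.85 CPM in PBS and 23.1, 24.4 and 21.4 CPM in IVIg. The groups did not overlap, and the log2 fold change was 1.03 (SE 0.265, unadjusted p = 0.00093, edgeR adjusted p = 0.933). All 3 IVIg libraries, replicate 3 included, were above 20 CPM. In WT it was at 11.7, 19.9 and 14.8 CPM with PBS and at 11.5, 15.5 and 12.2 CPM with IVIg. Il1rn, the secreted antagonist of the interleukin-1 receptor, was at 13, 17.2 and 18.5 CPM in knockout PBS and at 34.7, 22.5 and 26.5 CPM in knockout IVIg (log2 fold change 0.77, SE 0.264). The inflammatory list that holds it had 21 of 27 members higher and a median of 0.11. Cd14, the coreceptor for bacterial lipopolysaccharide, was at 28.3, 23.4 and 26.3 CPM in knockout PBS and at 30.9, 36.3 and 38.3 CPM in knockout IVIg, whereas in WT it was at 33.7, 39.4 and 36.3 CPM with PBS and at 16, 14.9 and 27.8 CPM with IVIg.

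**Figure D4:**
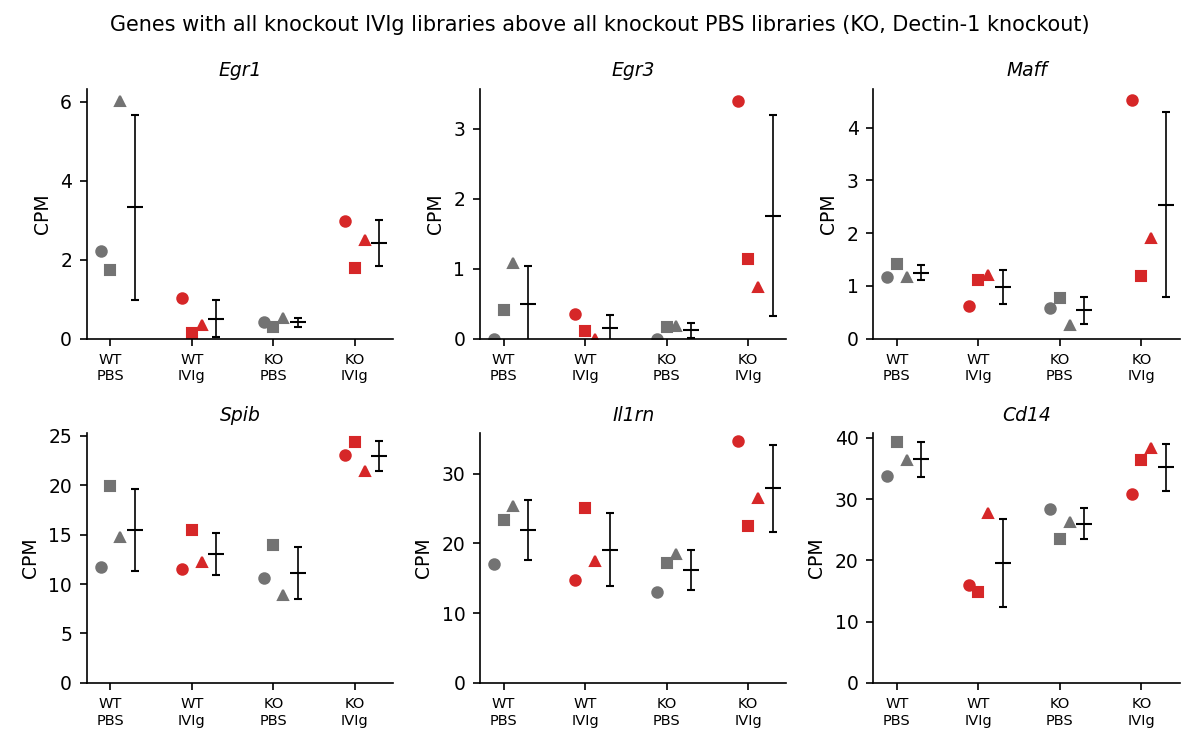
CPM by library for 6 genes whose 3 Dectin-1 knockout IVIg libraries all lie above the 3 knockout PBS libraries, with WT beside them; symbols are libraries, and bars are the mean with SD (n = 3), cut at 0. Egr1 and Cd14 are lower with IVIg in every WT library, and Spib lies above 20 CPM only in the knockout IVIg libraries.

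The Fc gamma receptors, through which IgG acts on monocytes, showed no call. Fcgr2b, the inhibitory receptor, was at 219, 211 and 229 CPM in PBS and at 226, 260 and 251 CPM in IVIg (log2 fold change 0.16, SE 0.239). Fcgr3, a low-affinity activating receptor, was at 374, 349 and 389 CPM and at 358, 380 and 309 CPM, and Fcgr1, the high-affinity receptor, at 152, 183 and 181 CPM and at 205, 148 and 144 CPM. Fcgr4, the activating receptor of non-classical cells, was at 187, 192 and 190 CPM in PBS and at 107, 154 and 119 CPM in IVIg. Only for Fcgr4 among these 4 receptors did the groups not overlap (log2 fold change -0.58, SE 0.378, unadjusted p = 0.142). In WT its log2 fold change was 0.83 (SE 0.379), but the groups overlapped. It was at 74.1, 123 and 94.8 CPM in WT PBS and at 78.6, 314 and 127 CPM in WT IVIg. Genes of Fc receptor signalling, among them the kinases Syk and Lyn and the phosphatase Inpp5d, were higher for 25 of 32 with a median of 0.14, and with 1 library left out the median ran from 0.05 (without IVIg replicate 3) to 0.21 (without IVIg replicate 1). C-type lectins and the CARD9 pathway were higher for 11 of 30, with a median of -0.06 (-0.13 without IVIg replicate 1).

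Genes encoded by the mitochondrial genome were lower with IVIg for all 13 members, with a median of -0.54. All IVIg libraries were below all PBS libraries for 8 of the 13 (4.42% of all genes), and no unadjusted p was under 0.05. mt-Nd1, a subunit of respiratory complex I, was at 611, 635 and 850 CPM in PBS and at 499, 393 and 448 CPM in IVIg (log2 fold change -0.65, SE 0.362). The list median was between -0.65 and -0.48 with any of the 6 libraries left out. In WT 8 of the 13 were higher with IVIg, with a median of 0.435, and 2 had all IVIg libraries above all PBS libraries (3.44% of all genes). The knockout minus WT difference was negative for all 13, with a median of -0.917 and no edgeR adjusted p under 0.998. Of the nuclear genes of the respiratory chain, 35 of 72 were higher and the median was -0.01. That median turned from -0.28 without IVIg replicate 1 to 0.14 without IVIg replicate 3. Cytosolic ribosomal proteins were alike, with a median of 0.02 that was -0.31 without IVIg replicate 1 and 0.20 without IVIg replicate 3. Their summed level was 55200, 55400 and 68800 CPM in PBS and 84600, 51700 and 45900 CPM in IVIg, highest in the library that stood apart. In WT every member of both lists had a positive fold change with IVIg (51.1% of all genes), with medians of 0.36 for respiratory and 0.42 for ribosomal genes. All WT IVIg libraries were above all WT PBS libraries for 0 of 79 ribosomal and 1 of 72 respiratory genes (3.44% of all genes). WT libraries also differed by gene length, with rho of deviation on length of 0.248, 0.363 and 0.535 in PBS and 0.581, -0.298 and -0.348 in IVIg, and the part of this in the WT medians was not tested.

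The unfolded protein response, which raises folding capacity of the endoplasmic reticulum, had 20 of 26 members higher and a median of 0.20, and in 7 of them all IVIg libraries were above all PBS libraries (4.37% of all genes). The chaperone Calr was at 682, 662 and 600 CPM in PBS and at 894, 818 and 764 CPM in IVIg (log2 fold change 0.35, SE 0.213). Hspa5, the main chaperone of the compartment, was at 631, 700 and 516 CPM and at 838, 719 and 713 CPM, and Sdf2l1 at 69.1, 63 and 65.5 CPM and at 105, 81.2 and 82 CPM. The 3 genes did not overlap between the groups, each by a small margin, and no member of the list reached an unadjusted p under 0.05. The median stayed between 0.16 and 0.22 with any 1 of the 6 libraries left out. In WT 8 of 26 members were higher, with a median of -0.09.

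Most of the remaining pathway lists had medians near 0. Type I interferon stimulated genes were higher for 21 of 43 members with a median of -0.0046, and MHC class I and class II genes had medians of -0.03 and 0.13 (the latter 0.03 without PBS replicate 3 and 0.32 without IVIg replicate 2). Cell cycle genes were higher for 36 of 44 with a median of 0.18, but it was -0.01 without IVIg replicate 2. Plk1, a mitotic kinase, was at 0.909, 1.27 and 0.93 CPM in PBS and at 2.35, 2.88 and 2.01 CPM in IVIg, without overlap. Lysosomal genes had a median of -0.07, glycolysis -0.01 and cholesterol synthesis 0.01. Slc2a1, the glucose transporter at the head of glycolysis, was at 25.4, 27.3 and 30.9 CPM in PBS and at 39.5, 37.8 and 34.1 CPM in IVIg (log2 fold change 0.41, SE 0.208). Creg2 had lower values in each IVIg library, at 1.7, 1.38 and 2.42 CPM in PBS and at 0.309, 0.372 and 0.105 CPM in IVIg (log2 fold change -2.86, SE 0.68, edgeR adjusted p = 0.82). In WT Creg2 was at 1.26, 1.31 and 1.98 CPM with PBS and at 1.76, 1.56 and 1.18 CPM with IVIg.

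**Figure D5:**
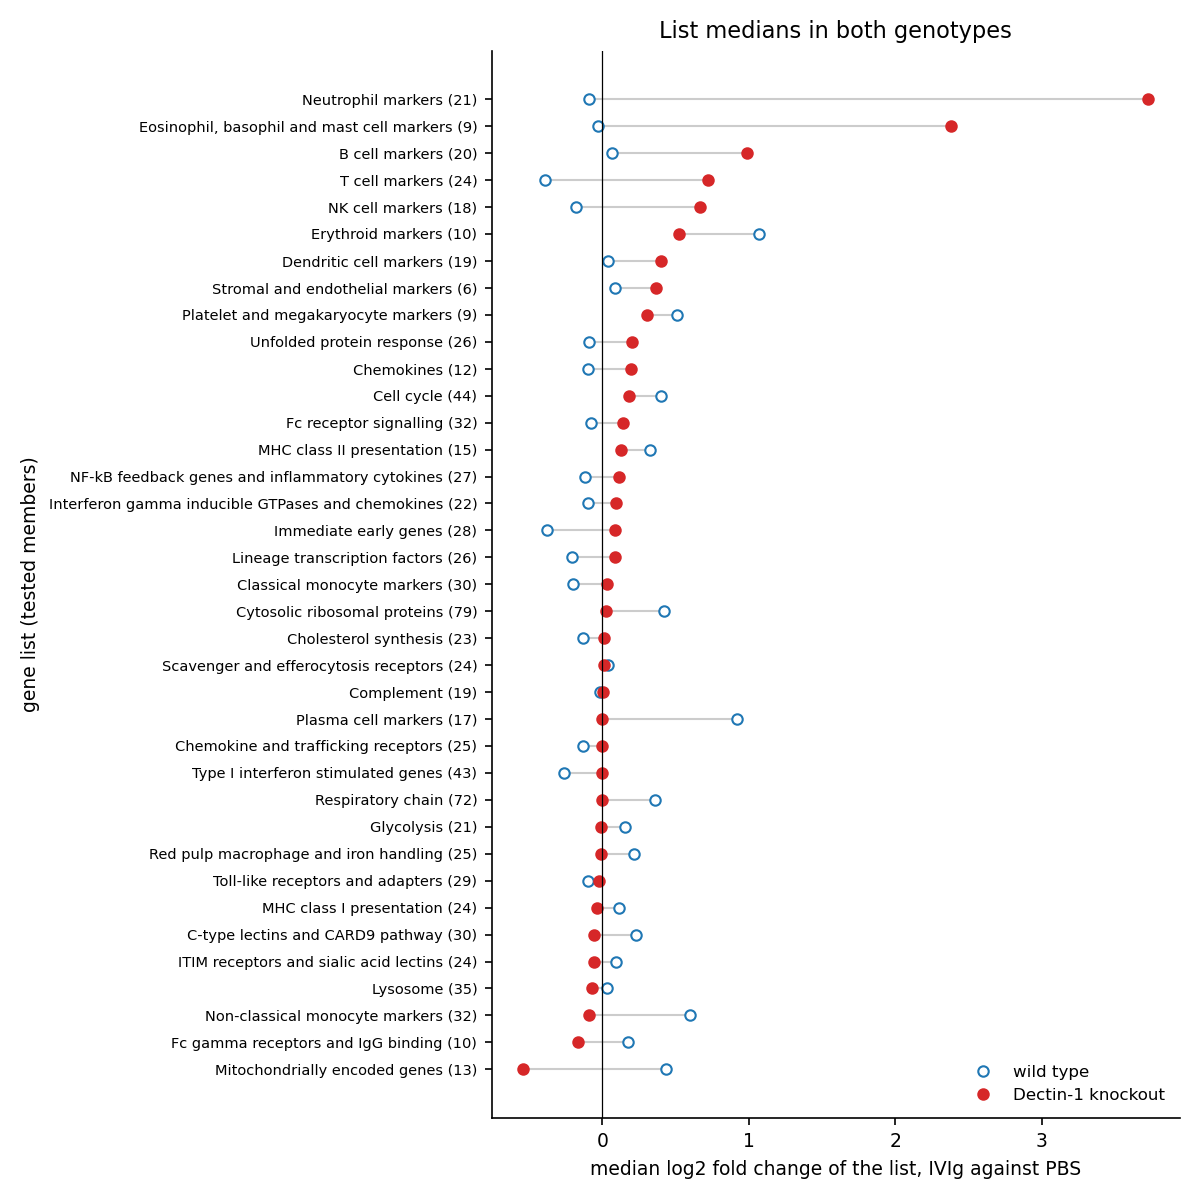
Median log2 fold change of IVIg against PBS for 37 gene lists in the Dectin-1 knockout (red) and WT (open blue), with the number of tested members in brackets. The knockout median is highest for neutrophil genes (3.73) and lowest for mitochondrially encoded genes (-0.54), and 23 of the 37 knockout medians are above 0.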

How the data were processed

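RNA from sorted spleen monocytes was sequenced in 18 libraries, 3 in each of 6 groups. Counts per gene were made by the authors with featureCounts 2.0.2 on Ensembl release 104 genes of GRCm39, per the file headers, and deposited as raw counts beside each gene's exon length in bases. Reads were aligned with STAR, per the submitters' processing notes. Per the file header, reads over several genes count for each of them and strand is not used, so reads of overlapping or antisense genes are shared. Another 18 count columns could not be matched to a sample and were left out. Genes without a symbol (1492 of 55416) held 0.231% to 0.284% of the counts of these libraries and were kept in the totals.

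From the counts, 17040 genes passed filterByExpr, were scaled by TMM and were tested in edgeR 4.0.16 under R 4.3.3 by its quasi-likelihood test, all 18 libraries sharing 1 model (12 residual degrees of freedom). The contrasts were IVIg against PBS in the knockout and its difference from WT, 2 comparisons, each adjusted by Benjamini-Hochberg, with a call at an adjusted p under 0.05. IVIg against PBS in WT was also fitted in the same model and adjusted in the same way, to be set beside them. The scripts were tested on simulated data. Alternatives were DESeq2 1.42.0, limma 3.58.1 voom, RLE factors, other filters, own groups only, removal of gene families or a gene length trend, and leaving out each library.

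The samples and the 37 lists were chosen with earlier results of these data known. Named genes are, per list, the 2 with the smallest unadjusted p, the Fc gamma receptors and Clec7a. Chil1, Wfdc21, Itgb2l, Ear1, Cxcr2, Treml4, Ighv10-3, Klf5, Gm9574, S100a8, S100a9, Ngp, Ltf, Camp, Ly6g, Lcn2, Mpo, Egr1, Cd300e, Eno3, Ms4a1, Cd3e, Epx, Siglecf, Hspa5, Sdf2l1, Ly6c2, Ccr2, Creg2, Csf3r, Mmp8, Cd177 and Prtn3 were named after their values were seen. Replicates are numbered by accession, as names only. P-values rest on 3 libraries a group, which the design text calls independent mice.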

Additional observations from a re-analysis of the deposited data

Results flagged for a closer look

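For 3 named genes the IVIg and PBS libraries did not overlap in either genotype and lay in opposite directions. The knockout minus WT difference in the IVIg effect, on the log2 scale, was 5.28 for Egr1 (SE 1.05, unadjusted p = 7.12e-05), 3.46 for Hdc (SE 0.887, unadjusted p = 0.000942) and 1.34 for Cd14 (SE 0.484, unadjusted p = 0.0122). In the edgeR interaction test over all genes none of the 3 passed adjustment, with adjusted p of 0.998 for each. Over all tested genes, 69 of 17040 (0.405%) had groups apart in opposite directions in the 2 genotypes. Egr1 and Cd14 were above all PBS libraries in each knockout IVIg library, and Hdc exceeded the highest PBS library by 0.985 against 0.818 CPM in IVIg replicate 3.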

How the results depend on the processing

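The knockout comparison gave 0 calls in edgeR, 0 under 8 of 10 other settings and 0 in 5 of the 6 fits that leave out 1 library. DESeq2 gave 2 (Ighv10-3, adjusted p = 0.00238, with counts only in IVIg replicates 2 and 3, and Retnlg, 0.00457), no low-count filter gave 1 (Retnlg, 0.0402), and leaving out libraries gave 0 to 13, the 13 without IVIg replicate 3. The interaction gave 0 calls except 1 with DESeq2 (Klf5, 0.0348), and 0 with any 1 library left out. Genes at an unadjusted p under 0.05 numbered 556, against 1291 with voom, 404 with DESeq2 and 427 without PBS replicate 3; for the interaction they numbered 639, against 2666 with voom, 377 with DESeq2, 389 with the legacy fit and 1817 without WT IVIg replicate 1. With 1 library left out, log2 fold changes ran from -0.0506 to 1.586 for Fcmr, from -0.3315 to 2.277 for Pou2af1, from -2.703 to 7.147 for Cma1 (each lowest without IVIg replicate 2) and from -0.2356 to 0.03139 for Fcgr1 (positive without IVIg replicate 2 or 3, 0.01558 and 0.03139), so their signs turned; the cause was not tested. With mitochondrial genes removed the mitochondrial list has no value. No paired analysis was possible because the labels give no replicate numbers.

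Depth limits genes near 3 counts, 0.0629 to 0.186 CPM. Several transcripts of other cell types, such as Ly6g and Epx, were at or near 0 counts in some libraries.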

Other observations

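For the genes given here other than Siglech, the Dectin-1 knockout IVIg libraries lay apart from the PBS libraries, and none was called by edgeR (adjusted p = 1 for each). The chemokine Cxcl9, which draws T cells through CXCR3, was at 4.85, 7.67 and 7.18 CPM in PBS and at 26.9, 10.3 and 11.7 CPM in IVIg, highest in IVIg replicate 1. Ccr9, a homing receptor for the gut that plasmacytoid dendritic cells also carry, was at 0.273, 1.06 and 0.595 CPM in PBS and at 2.35, 2.35 and 1.59 CPM in IVIg. Siglech, a marker of plasmacytoid dendritic cells, was at 0.182, 0.186 and 0.67 CPM in PBS and at 0, 1.84 and 1.17 CPM in IVIg, so it was listed at 0 in IVIg replicate 1, where Ccr9 and Spib were high. Kif23, a mitotic kinesin, was at 11.5, 10.9 and 13.9 CPM in PBS and at 15.7, 19.4 and 16.2 CPM in IVIg.

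Lower values in every IVIg library were found for Ptger2, a prostaglandin E2 receptor, at 14.6, 11.6 and 10.7 CPM in PBS and at 7.24, 8.91 and 7.61 CPM in IVIg (log2 fold change -0.63, SE 0.26). Idi1, an isomerase of cholesterol synthesis, was at 13.2, 13.7 and 15 CPM in PBS and at 8.41, 9.28 and 10.8 CPM in IVIg (log2 fold change -0.54, SE 0.24). The WT fold changes of both had the same sign and were smaller (log2 -0.13, SE 0.254, and -0.24, SE 0.233), and the differences between the genotypes were -0.50 (SE 0.363) and -0.30 (SE 0.334).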
